A study of Mus musculus with 6 samples.

Results

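Glioma cells can display surface and secreted molecules that hold back T cells, natural killer cells and macrophages. The genes of 7 such ligands (Cd274, Cd276, Cd47, Pvr, Nectin2, Lgals9 and Nt5e) were followed in KMWT1, a mouse glioma cell line, after transfection with an siRNA pool against YY1. They were taken by their symbol from tables of read counts per gene, 7 of 24982 symbols, and all 7 were found and passed the filter on low counts that left 12148 genes for testing. The comparison was between 3 samples given a control siRNA (1, 2 and 3) and 3 given the YY1 siRNA pool (4, 5 and 6), with RNA taken 48 hours after transfection in both groups. All 6 samples are the same line grown in the same serum medium, and the labels give no other treatment or allele. The labels do not tell whether the 3 samples of a group were separate cultures, and the p-values therefore rest on a spread that may be technical. The tables hold RNA only, and the amount of any ligand on the cell surface was not measured.

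Immune checkpoint ligands bind receptors on immune cells and set the threshold at which those cells attack. PD-L1, the product of Cd274, engages PD-1 on T cells, and its gene is switched on by interferon through IRF1. CD276 (B7-H3) is a related B7-family protein that is abundant on many gliomas, and CD47 tells macrophages not to engulf the cell by binding SIRPα. The nectin-family protein PVR (CD155) binds the inhibitory receptor TIGIT and the activating receptor CD226, which its relative nectin-2 (CD112) also binds. Galectin-9 (Lgals9) binds TIM-3, an inhibitory receptor of T cells, and CD73 (Nt5e) makes extracellular adenosine from AMP. YY1 is a DNA-binding zinc finger protein that acts as an activator at some promoters and as a repressor at others.

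The loci are given on mm10 with GENCODE M21 gene models. The nectin-family genes lie on the minus strand of chromosome 7, with Nectin2 at chr7:19716644-19750483 and Pvr at chr7:19903578-19921160, 153 kb apart. Cd276 (chr9:58524298-58555437, minus strand) and Nt5e (chr9:88327197-88372092, plus strand) lie on chromosome 9, Cd274 at chr19:29367455-29388095 on the plus strand, Cd47 at chr16:49800533-49915010 on the plus strand and Lgals9 at chr11:78962974-78984946 on the minus strand. Genes annotated on the opposite strand share exon bases with Cd274 (511 bases), Cd276 (416 bases) and Nectin2 (135 bases). No source used here says whether reads were counted by strand, and reads from those partners may be included in these 3 counts. No annotated exon of another gene overlaps an exon of the other 4.

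The start-site sequences of Lgals9 and Cd274 are shown because both genes are known to respond to interferon and Lgals9 is the ligand gene with the largest difference described below. Each runs from 250 bases before to 50 bases after the RefSeq transcription start (GRCm38.p6), 5′ to 3′ on the gene's strand. Lgals9 is at chr11:78984875-78985174 (minus strand) and Cd274 at chr19:29367188-29367487 (plus strand). Capitals mark matches to TTTCNNTTT, the core letters of the interferon-stimulated response element, and to GGGCGG, the GC box.
Lgals9: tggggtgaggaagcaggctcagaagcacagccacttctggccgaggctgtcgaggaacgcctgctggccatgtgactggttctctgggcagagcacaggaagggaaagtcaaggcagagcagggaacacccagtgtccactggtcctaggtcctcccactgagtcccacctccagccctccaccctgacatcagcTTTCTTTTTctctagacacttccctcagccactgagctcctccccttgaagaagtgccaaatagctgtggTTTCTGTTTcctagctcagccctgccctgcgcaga
Cd274: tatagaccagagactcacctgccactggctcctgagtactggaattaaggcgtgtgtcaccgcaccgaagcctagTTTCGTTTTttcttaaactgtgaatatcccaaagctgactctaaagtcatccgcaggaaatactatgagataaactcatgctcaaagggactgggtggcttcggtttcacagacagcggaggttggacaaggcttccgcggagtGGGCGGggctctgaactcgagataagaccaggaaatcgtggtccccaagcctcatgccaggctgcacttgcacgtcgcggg
Both TTTCNNTTT matches in Lgals9 read in the direction of the gene, the first at position -55 and the second at position 16, counted from the first transcribed base as 1. The match in Cd274 reads the same way from position -175, and its GC box starts at position -31. Among the 7 windows found for 6 of the 7 genes (Cd47 has 2), TTTCNNTTT was present in those of Lgals9 and Cd274 and in no other, searched on both strands. TTTCNNTTT occurs in 10.6% of 32851 start-site windows of this length. This form was set after a longer form had been searched, so its presence at Lgals9 and Cd274 alone is only a description. The base after the match is c at both Lgals9 matches and t at that of Cd274. None of the 7 windows held the YY1 motif AANATGG (16.1% of all windows) or the longer AANATGGCG that contains it (2.38%), nor CACGTG, the E-box (7.15%), on either strand. GGGCGG, present in 35.7% of all windows, was found at Cd274, Cd276, Cd47, Nectin2 and Nt5e. These are matches of letters in short windows and not measured binding sites. Pvr had no entry in the table of start sites.

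The targeted gene was lowered in every YY1 siRNA sample. Yy1 stood at 127, 128 and 126 CPM (counts scaled by TMM-normalised library size) in control siRNA samples 1, 2 and 3, and at 81.2, 77.6 and 78.6 CPM in YY1 siRNA samples 4, 5 and 6. That is 62.3% of control (95% interval 56.5% to 68.6%, edgeR quasi-likelihood test with Benjamini-Hochberg adjustment, adjusted p 0.00154). Counts in genes ranged from 15738457 (YY1 siRNA sample 6) to 20644057 (control siRNA sample 1), and 3 counts equal 0.196 and 0.144 CPM in these libraries. YY1 siRNA sample 6 stood apart on the first principal component (44.2% of the variance) and sample 4 on the second (18.7%). The glioma and glial progenitor markers were partly present, with Sox2, Nes, Vim, Pdgfra, Egfr and Cd44 above 10 CPM. S100b was at 8.37 CPM in control and 7.32 CPM with YY1 siRNA. The other 3 of 10 were under 1 CPM, Olig2 and Fabp7 at 0 in all libraries and Gfap at 0 to 2 counts per library. Of the markers of cells that carry the receptors, all 7 T cell and natural killer markers in the tables were at 0 and 7 of 8 microglia and macrophage markers were under 1 CPM. The exception, Cd68, is a lysosomal gene, and the summed level of those 8 was 25.5 to 32.3 CPM in control and 28.2 to 32.6 CPM with YY1 siRNA. Among other types, 5 of 6 endothelial and 5 of 5 neuronal markers were under 1 CPM. The exception, Cdh5, which encodes VE-cadherin, was at 53.2 ± 3.71 CPM in control and 47.4 ± 4.08 CPM with YY1 siRNA (SD, n = 3), overlapping between groups.

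The 7 ligand genes spanned a wide range of levels, with Pvr the highest and Cd274 the lowest. Per kilobase of exon in control siRNA samples, Pvr stood at 92.1 ± 4.88 CPM per kb (SD, n = 3), above 96.0% of the 12037 tested genes with a length. Cd47 followed at 31.9 ± 1.46 CPM per kb, above 86.5% of genes. By this length Lgals9 (14.6 ± 2.33 CPM per kb) and Cd276 (14.3 ± 1.41 CPM per kb) did not differ beyond their spread. Nectin2 came next at 9.34 ± 0.375 CPM per kb. By the same length Nt5e (1.10 ± 0.0916 CPM per kb) and Cd274 (1.04 ± 0.217 CPM per kb) overlapped at the bottom, above 15.9% and 15.1% of genes. In YY1 siRNA samples Cd276 (13.9 ± 1.22 CPM per kb) lay above Lgals9 (11.2 ± 1.00 CPM per kb), with no overlap between their samples. The other ranks were as in control. By longest transcript instead of exon union, the control levels were 19.7 CPM per kb for Lgals9 and 14.5 CPM per kb for Cd276. How far these genes lie apart in control therefore depends on the length used. The order of Cd276 and Lgals9 in YY1 siRNA samples was not compared by longest transcript and is given for the exon union only. The order in control samples was the same when the longest transcript replaced the union of exons. The levels of Pvr and Nt5e, whose exon unions exceed their longest transcripts most, then were 194 and 2.37 CPM per kb. Cd274 stayed at 1.04 CPM per kb.

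**Figure D1:**
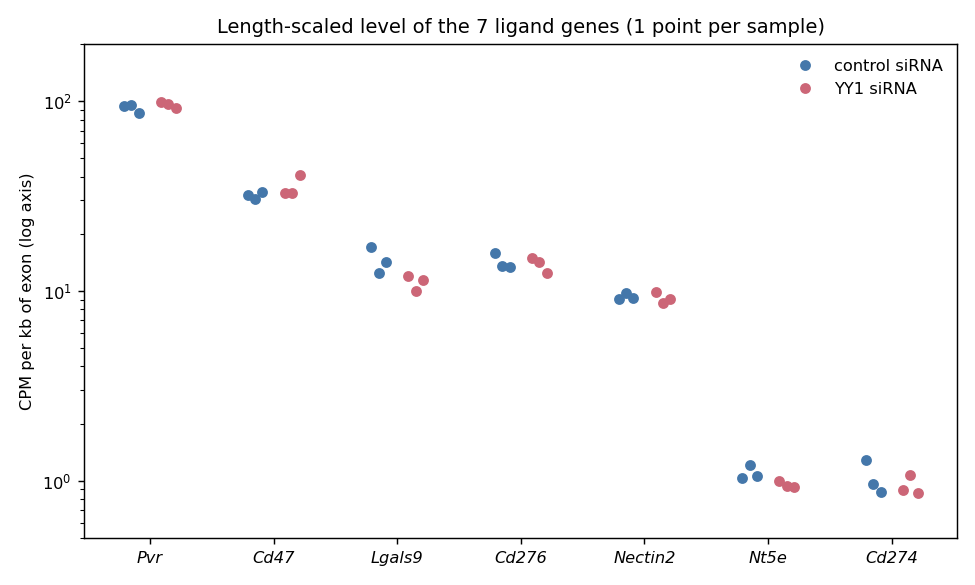
CPM per kilobase of exon (log axis) for each ligand gene, 1 point per sample, control siRNA in blue and YY1 siRNA in red, ordered by the control mean. Pvr lies highest at 86.6 to 98.6 CPM per kb and Cd274 lowest at 0.865 to 1.29 CPM per kb, and the samples of Lgals9 and Cd276 overlap in control.

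None of the 7 ligand genes passed the test over all genes with edgeR, DESeq2 or limma-voom. Over all genes 1 of 12148 (0.00823%), Yy1 itself, passed with edgeR, and 0.149% passed with DESeq2. At an unadjusted p under 0.05 there was 1 of 7 with edgeR, Lgals9, against 10.8% of all tested genes, 5.46% lower and 5.38% higher. The samples of the groups did not overlap for 2 of 7, Lgals9 and Nt5e, both lower with YY1 siRNA, against 16.3% of all tested genes in either direction and 8.91% in the lower direction. The fitted change was below 0 for 5 of 7 (49.8% of all tested genes), with a median log2 fold change of -0.039 beside 0.00071 over all genes. Counts of 1 and 2 among 7 genes are too few to be set against these shares, and nothing particular to the ligand genes is read from them. In bulk RNA a lower level cannot be told apart from fewer cells that carry the transcript.

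Lgals9 encodes galectin-9, the secreted lectin that binds TIM-3. Its level was 36.5, 26.6 and 30.5 CPM in control siRNA samples 1, 2 and 3, and 25.6, 21.4 and 24.5 CPM in YY1 siRNA samples 4, 5 and 6. Every YY1 siRNA sample lay below every control sample, but control sample 2 and YY1 siRNA sample 4 were close together. The fitted level was 76.3% of control (95% interval 64.0% to 90.9%), a log2 fold change of -0.39 (SE 0.116, edgeR unadjusted p 0.00561, adjusted p 0.267). Control siRNA sample 1, the highest, carried part of the difference. Without it the log2 fold change was -0.26 (edgeR unadjusted p 0.0343, adjusted p 0.866). Without control siRNA sample 2, the lowest control, the log2 fold change was -0.49 (edgeR unadjusted p 0.00108, adjusted p 0.507). Over 7 alternative settings with all 6 samples, the adjusted p ran from 0.0852 to 0.312.

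Cd274, the PD-L1 gene, was scarce, with 48 to 97 counts per library. It stood at 4.66, 3.48 and 3.17 CPM in control siRNA samples and at 3.25, 3.87 and 3.13 CPM in YY1 siRNA samples. The groups overlapped, and control siRNA sample 1 was again the highest of all 6. The fitted level was 90.6% of control, and its 95% interval, 69.2% to 119%, was the widest of the 7 genes (edgeR adjusted p 0.776). A decrease to 69.2% and an increase to 119% both lie within what these samples allow. Without control siRNA sample 1 the log2 fold change was 0.044, the opposite direction.

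Cd276, the B7-H3 gene, had 701 to 1209 counts per library. It stood at 58.1, 49.5 and 48.9 CPM in control and 54.3, 52.2 and 45.7 CPM with YY1 siRNA. The samples overlapped throughout, with the highest in one group and the lowest in the other. The fitted level was 97.3% of control (95% interval 85.0% to 111%, edgeR adjusted p 0.885). Its direction was not fixed, since the log2 fold change was 0.045 when control siRNA sample 1 was left out and 0.022 when YY1 siRNA sample 6 was.

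Cd47, the gene of the signal read by macrophages, was at 201, 191 and 209 CPM in control siRNA samples 1, 2 and 3. In YY1 siRNA samples 4, 5 and 6 it was at 206, 206 and 257 CPM. Samples 4 and 5 lay within the control range and sample 6 alone lay above it. The fitted level was 111% of control (95% interval 97.2% to 128%, edgeR adjusted p 0.525), and the log2 fold change of 0.16 became 0.037 without YY1 siRNA sample 6. That library had the fewest counts in genes and the highest share of counts in no gene, 11.3%, and it has the only table whose name lacks the mark "combined". Their part in the Cd47 level was not tested.

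Pvr, the gene of the TIGIT ligand CD155, had 8651 to 11957 counts per library. It stood at 575, 587 and 530 CPM in control and 603, 588 and 565 CPM with YY1 siRNA, overlapping between the groups. The fitted level was 104% of control with a 95% interval of 92.1% to 117% (edgeR adjusted p 0.813). Its log2 fold change of 0.054 was 0.011 without control siRNA sample 3 and 0.083 without control siRNA sample 2. Nectin2, the gene of the second nectin-family ligand, was at 31.7, 34.1 and 32.0 CPM in control and 34.3, 30.3 and 31.8 CPM with YY1 siRNA. Both the highest and the lowest Nectin2 value belonged to YY1 siRNA samples. Its fitted level was 98.4% of control (95% interval 87.4% to 111%, edgeR adjusted p 0.928). The intervals of the nectin-family genes were the narrowest of the 7.

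Nt5e, the gene of the ectoenzyme CD73, had 122 to 200 counts per library. It was at 8.94, 10.4 and 9.10 CPM in control siRNA samples and at 8.60, 8.12 and 7.96 CPM in YY1 siRNA samples. Each sample with YY1 siRNA had less Nt5e than each control sample, with sample 4 and control sample 1 nearest. The fitted level was 87.0% of control (95% interval 73.9% to 102%, edgeR unadjusted p 0.0886, adjusted p 0.507).

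**Figure D2:**
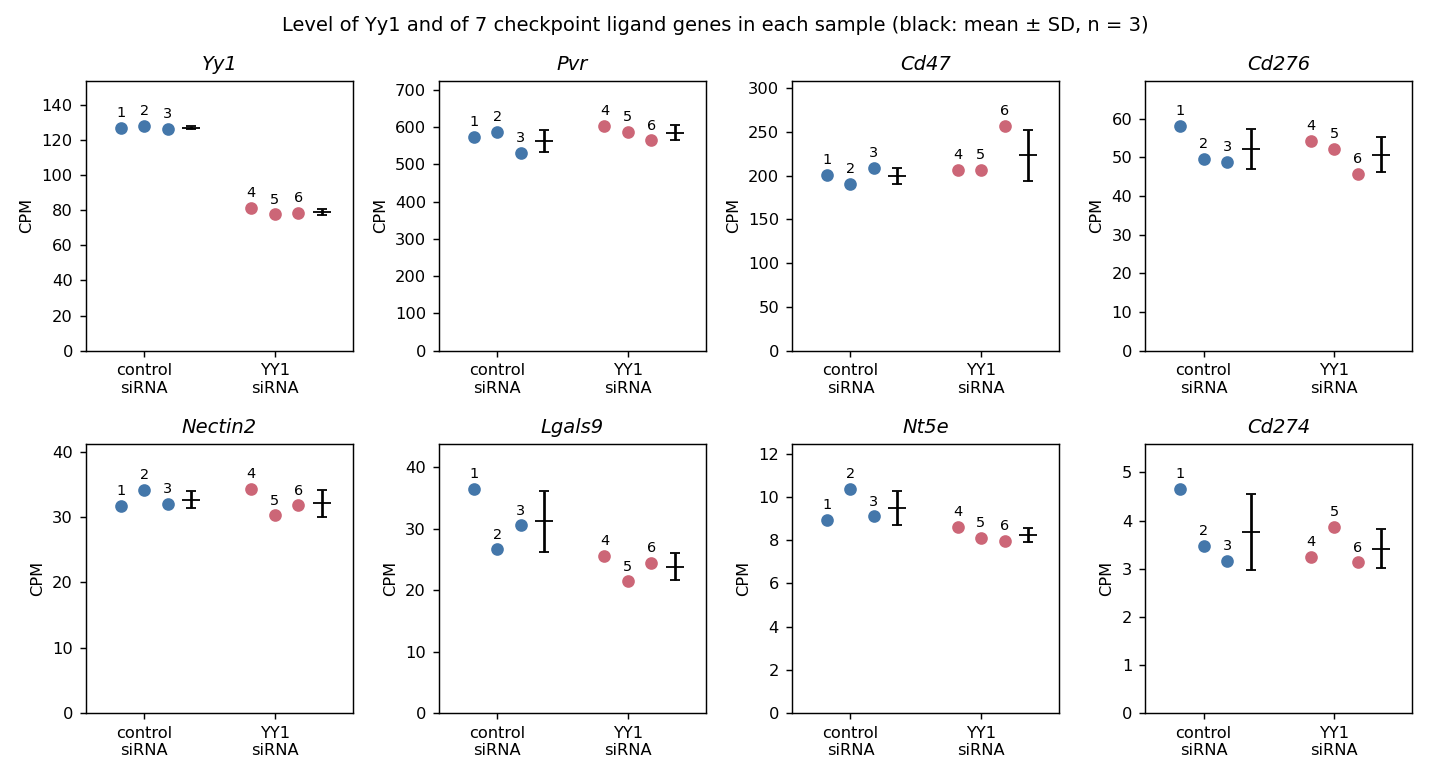
CPM of Yy1 and the 7 ligand genes in each sample (axis from 0, numbers are sample numbers), with the mean ± SD (n = 3) in black. Yy1 is lower in all 3 YY1 siRNA samples, Lgals9 and Nt5e do not overlap between groups, and the higher Cd47 mean with YY1 siRNA comes from sample 6 at 257 CPM.

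The genes around these ligands were read from 7 lists holding 95 symbols found in the tables, of which 72 were tested. None of the 72 passed with edgeR, DESeq2 or limma-voom, and 5 of 72 had an unadjusted edgeR p under 0.05, 1 higher and 4 lower, against 10.8% of all tested genes. The fitted change was below 0 for 50 of 72 (49.8% of all genes), with a median log2 fold change of -0.046. Without the filter on low counts edgeR called 1 of them, Cd80.

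Among 13 tested genes of other inhibitory and B7-family ligands, 1 was higher and 1 lower at an unadjusted p under 0.05. The higher was Cd80, whose product B7-1 binds CD28, CTLA-4 and also PD-L1. It stood at 1.97, 1.92 and 2.64 CPM in control and 3.98, 3.56 and 3.72 CPM with YY1 siRNA, with no overlap and only 37 to 76 counts per library. Its log2 fold change was 0.79 (SE 0.175, edgeR unadjusted p 0.000657, adjusted p 0.160), and the adjusted p was 0.0345 without the filter on low counts and 0.273 with DESeq2. The lower was Tnfsf9, the gene of the costimulatory ligand 4-1BBL, at 24.2, 21.3 and 18.8 CPM in control and 16.9, 16.7 and 15.0 CPM with YY1 siRNA (log2 fold change -0.40, edgeR adjusted p 0.230). Tnfsf9 shares 192 exon bases with Gm11110 on the opposite strand. The galectin genes Lgals1 (2955 ± 228 CPM in control, 3350 ± 395 CPM with YY1 siRNA) and Lgals3 (821 ± 35.3 and 775 ± 39.8 CPM) overlapped between groups. The second PD-1 ligand gene, Pdcd1lg2, named here for its receptor after its values were seen, was at 0.566 ± 0.221 and 0.832 ± 0.123 CPM.

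Of the 16 receptor genes in the tables, 5 were tested and 6 had no count in any library, Pdcd1, Btla, Cd226, Cd96, Treml2 and Adora3. Havcr2, which encodes the galectin-9 receptor TIM-3, was present in these cells at 26.2, 24.7 and 25.3 CPM in control and 22.7, 21.5 and 21.5 CPM with YY1 siRNA. The groups did not overlap, and the log2 fold change was -0.21 (SE 0.0784, edgeR unadjusted p 0.0174, adjusted p 0.365). The lectin gene Lgals9 and the receptor gene Havcr2 both had lower values in all 3 YY1 siRNA samples, and neither passed over all genes. Of all tested genes 8.91% were lower without overlap in this way. In the 7 lists 10 of 72 tested genes did not overlap (16.3% of all tested genes), 7 of them lower, so nothing particular to this pair is read from it. Sirpa, the gene of the CD47 receptor, was at 32.3 ± 0.218 CPM in control and 31.2 ± 0.779 CPM with YY1 siRNA. Its groups did not overlap either (edgeR unadjusted p 0.514). The adenosine receptor gene Adora2b was at 1.63 ± 0.301 and 1.47 ± 0.0339 CPM.

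Among the 17 genes of the interferon receptors, their kinases, inhibitors and transcription factors, 1 was lower at an unadjusted edgeR p under 0.05. The fitted change was below 0 for 12 of them, against 49.8% of all tested genes. Jak1 (286 ± 19.8 and 266 ± 19.2 CPM) and Stat3 (137 ± 9.32 and 128 ± 10.1 CPM) overlapped between groups. Irf1, a direct activator of Cd274 and chosen here after its values were seen, was at 55.1 ± 2.51 and 54.7 ± 2.58 CPM. Control siRNA sample 1 was highest for Lgals9, Cd274 and Cd276, and it was also the library with the most counts. The part of that library's depth in these levels was not tested.

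The remaining lists gave 1 gene at an unadjusted p under 0.05. Zdhhc3, a palmitoyltransferase that modifies PD-L1, was at 42.3, 43.1 and 41.4 CPM in control and 35.0, 39.0 and 29.9 CPM with YY1 siRNA (log2 fold change -0.28, edgeR adjusted p 0.316), and it shares 830 exon bases with Tgm4 on the opposite strand. The other 15 regulators of PD-L1 and CD47 protein had none, with the ubiquitin ligase adaptor Spop at 347 ± 7.83 and 336 ± 19.3 CPM and the glycosyltransferase subunit Stt3a at 276 ± 10.1 and 290 ± 17.8 CPM. All 8 other transcription regulators had an edgeR fitted change below 0 (49.8% of all tested genes), with a median log2 fold change of -0.056. None had an unadjusted p under 0.05, and the changes were small enough for direction to depend on the method. Nfkb1 was at -0.0021 with edgeR and 0.0034 with DESeq2. Hif1a was at 401 ± 15.3 and 384 ± 15.1 CPM and Jun at 388 ± 14.2 and 373 ± 30.9 CPM. In the adenosine list 6 of 11 genes were tested, among them the nucleoside transporter gene Slc29a1 (46.2 ± 1.59 and 46.3 ± 2.32 CPM) and the ectoenzyme gene Cd38 (32.6 ± 2.41 and 33.1 ± 1.45 CPM). Entpd1, which makes the AMP that CD73 uses and was chosen after its values were seen, was at 2.63 ± 0.346 and 2.26 ± 0.136 CPM. The CD47 partners Itgb1 (1267 ± 63.0 and 1259 ± 52.8 CPM) and Thbs2 (1061 ± 95.1 and 1134 ± 97.7 CPM) overlapped between groups.

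**Figure D3:**
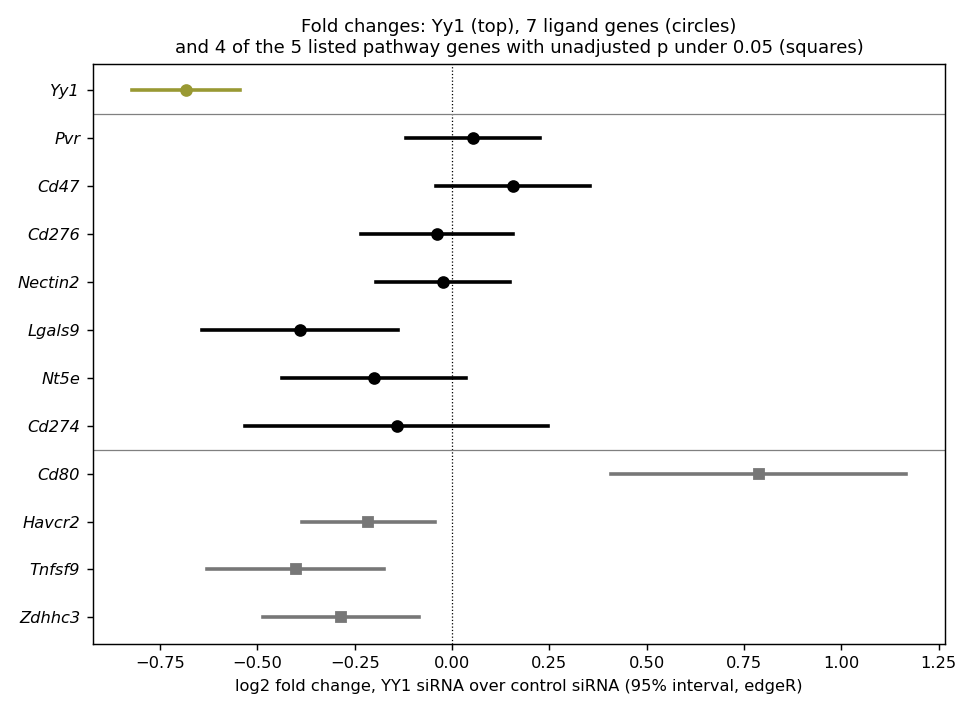
Log2 fold change of YY1 siRNA over control siRNA with its 95% interval (edgeR) for Yy1, the 7 ligand genes (circles) and 4 of the 5 listed pathway genes with an unadjusted p under 0.05 (squares, chosen by that p). Among the ligand genes only the interval of Lgals9, centred at -0.39, leaves out 0, and it did not pass over all genes.

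Across the 6 libraries, Cd274 and Cd276 were most alike of the 21 pairs of ligand genes (Pearson r 0.782 of log2 CPM), followed by Nectin2 and Nt5e (r 0.608), and Cd47 and Nt5e were least alike (r -0.718). The points share library depth and, in part, YY1 siRNA, so these are descriptions. The tested genes most like each member over the 6 samples were Qser1 and Slc25a45 for Cd274 (r 0.987 and 0.985), Pomt2 and Dgcr2 for Cd276 (0.991 and 0.979), and Cetn3 and Immp2l for Cd47 (0.995 and 0.990). For Pvr they were Ranbp9 and BC017158 (both 0.993), for Nectin2 Mlkl and Fkbp8 (0.988 and 0.986), for Lgals9 Scrn2 and Il7 (0.979 and 0.976), and for Nt5e Spns1 and Aqp5 (0.975 and 0.971). With 6 points and 12148 genes to choose from, such values are the top of a long list.

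**Figure D4:**
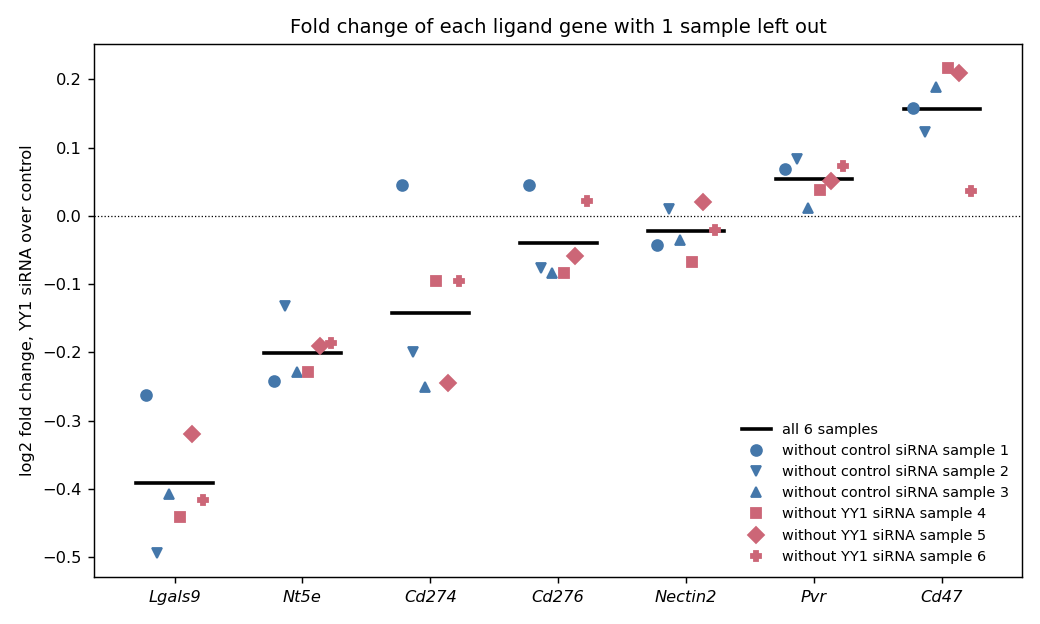
Log2 fold change of each ligand gene with all 6 samples (black line) and with each sample left out in turn (symbols, control siRNA samples in blue and YY1 siRNA samples in red). Lgals9 stays between -0.49 and -0.26 and Nt5e between -0.24 and -0.13, while Cd274, Cd276 and Nectin2 cross 0.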

How the data were processed

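RNA-seq was done on 3 control siRNA and 3 YY1 siRNA samples. The authors deposited 1 table of raw counts per gene symbol for each sample, with 24982 gene rows and 2 rows that name no gene (7.87% to 11.3% of counts in no gene, 1.01% to 1.15% ambiguous), which enter neither library sizes nor tests. Per the submitters' processing notes, STAR 2.6.1a, edgeR 3.30.0 and mm10 were used, and no source used here names the counting program, the annotation or the strand setting.

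The main test was edgeR 4.0.16 (R 4.3.3, quasi-likelihood F test, two-sided, filterByExpr, TMM, robust estimation) over 12148 genes with Benjamini-Hochberg adjustment and a threshold of 0.05. Alternatives were library size alone, RLE size factors, no low-count filter, at least 1 CPM in 3 samples, DESeq2 1.42.0, limma-voom (limma 3.58.1), edgeR without robust estimation, and leaving out each sample. The script was tested on simulated counts. Pairs of samples within a group differed by more than sampling noise (3.04 to 30.9 in chi-square over degrees of freedom). Lengths and loci came from GENCODE M21 and start-site windows from RefSeq (GRCm38.p6), and the TTTCNNTTT form of the motif was set after a longer form had been searched.

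The members and gene lists were chosen with earlier results of these data known. Genes named are the 7 members, Yy1, list genes with an unadjusted p under 0.05, the 2 others of each list with the highest mean CPM, and the 2 genes most correlated with each member (log2 CPM, prior count 2). Pdcd1lg2, Irf1, Entpd1, Cd68 and Cdh5 were added after their values were seen. 1 interferon-list gene that the rule would name is in the list counts but is not reported here by name.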

Additional observations from a re-analysis of the deposited data

Results flagged for a closer look

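Reads that fell in no annotated gene are outside every comparison made. They made up 11.3% of the counts of YY1 siRNA sample 6 and 10.7% of sample 5, more than in any control siRNA sample (7.99%, 8.64% and 9.03%), and 7.87% in sample 4. Among the ligand genes, Lgals9 (21.4 CPM) and Nectin2 (30.3 CPM) had their lowest values in sample 5. In sample 6 Cd47 had its highest value (257 CPM), and Cd274 (3.13 CPM), Cd276 (45.7 CPM) and Nt5e (7.96 CPM) had their lowest. Pvr had neither its highest nor its lowest value in these samples. Whether the share of such counts has a part in these levels was not tested.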

How the results depend on the processing

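Yy1 passed with the same direction under all 7 alternatives with the 6 samples (log2 fold change -0.71 to -0.68) and with each sample left out (-0.70 to -0.67). The number of ligand genes that passed was 0 in the main test, under each of the 7 alternatives and with each of the 6 samples left out. Of 91 values of a ligand gene's fold change under these alternatives, 86 kept their direction and 5 changed sign, all with a sample left out and none past the threshold: Cd274 without control siRNA sample 1 (0.044), Cd276 without control siRNA sample 1 (0.045) or YY1 siRNA sample 6 (0.022), and Nectin2 without control siRNA sample 2 (0.010) or YY1 siRNA sample 5 (0.020). With a sample left out, the log2 fold change ranged from -0.25 to 0.044 for Cd274, from -0.084 to 0.045 for Cd276, from -0.068 to 0.020 for Nectin2 and from 0.037 to 0.22 for Cd47. The number of pathway genes that passed was 0 except without the filter on low counts, where it was 1, Cd80, with 83 genes passing in all; the cause was not tested. The order of levels in control samples was the same for all 7 genes with the longest transcript's length, and the order in YY1 siRNA samples was not compared in this way. No paired analysis was possible because the groups share no sample number. Cd274 and Cd80, with under 100 counts per library, have wide intervals. The limit is not confined to genes with few counts. Lgals9, with 375 to 759 counts per library and a fitted level of 76.3% of control, did not pass either. The lack of calls therefore does not show that small changes are absent in any of the 7 ligand genes.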
